A study of Mus musculus with 25 samples.

Results

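The subject is a set of 9 genes for the subunits of microtubules in mouse liver, the beta-tubulin isotypes Tubb2a, Tubb2b, Tubb4b, Tubb5 and Tubb6 and the alpha-tubulin isotypes Tuba1a, Tuba1b, Tuba1c and Tuba4a. They were taken by name from a count table of 56980 genes, which holds 16 genes for alpha- or beta-tubulin once pseudogenes are left aside. The family was chosen by the measured levels of Tubb2a and Tuba1c, which had been seen to be higher with mannose at several doses. Every comparison of mannose with no mannose is therefore given as a description, with no p-value for an isotype. Where isotypes past a threshold are counted for such a comparison, nothing is read from the count. All 9 genes passed the filter on low counts in each fit. Their raw counts per library lay between 5409 and 49637 for Tubb2a, between 1782 and 8159 for Tuba1c, between 111 and 1100 for Tuba1a and between 24 and 751 for Tubb2b.

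The values are RNA-seq counts of 25 libraries from liver poly-A RNA of male C57BL/6J mice, which were 8 weeks old at the start and 20 weeks old at the end. Mice of the first batch, as the labels call it, had the FAT-MASH regimen with mannose in the drinking water at 5% or 20% for the last 6 weeks (therapy) or for all 12 weeks (prevention), the regimen without mannose, or normal chow, with 3 libraries in each of these 6 groups. The regimen is a model of metabolic dysfunction-associated steatohepatitis. It joined a chow rich in sucrose (41%), with 21.1% fat and 1.25% cholesterol, to water with fructose and glucose and to weekly injections of carbon tetrachloride, a liver toxin, so all 5 FAT-MASH groups share the toxin, which the labels do not give for the normal diet. The second batch holds mice on normal diet with no mannose (2 libraries), 5% mannose (2 libraries) or 20% mannose (3 libraries). Mannose was given there for all 12 weeks, as under prevention. Library totals lay between 31298299 and 56010646 counts for the first batch, and between 35971380 and 49752882 counts for the second. The livers expressed the hepatocyte marker list strongly, with a summed level of 65990 to 124500 CPM over the first-batch libraries. CPM are the counts of a gene relative to the library total, after that total was adjusted by the TMM method of edgeR.

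Alpha- and beta-tubulin form the dimers that polymerise into microtubules, the tracks along which liver cells move secretory vesicles, lipid droplets and organelles and from which the mitotic spindle is built. The isotypes of each class are near-identical over most of their length and differ chiefly at the C-terminal tail, where motors, severing enzymes and tail-modifying enzymes act. Cells also sense the pool of free dimers: the factor TTC5 recognises the first residues of nascent tubulin at the ribosome and directs decay of tubulin mRNA when dimers are in excess. In whole tissue, fewer cells of a type and less RNA per cell cannot be told apart.

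The ends of the coding sequences show how alike the beta isotypes are, which bears on how reads can be assigned to them. The last 72 bases of 4 reading frames, stop codon included, are given 5′ to 3′ from the GENCODE M21 transcripts, whose genome build is GRCm38. Capitals mark the bases unlike the aligned Tubb2a.
Tubb2a: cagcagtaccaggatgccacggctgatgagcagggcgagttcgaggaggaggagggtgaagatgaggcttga
Tubb2b: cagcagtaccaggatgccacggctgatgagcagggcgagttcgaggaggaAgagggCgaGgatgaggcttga
Tubb4b: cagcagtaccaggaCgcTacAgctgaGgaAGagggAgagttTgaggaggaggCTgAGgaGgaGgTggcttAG
Tubb5: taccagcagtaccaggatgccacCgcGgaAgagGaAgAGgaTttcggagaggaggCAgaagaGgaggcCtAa
Tubb2b differed from Tubb2a at 3 of these bases, Tubb5 at 13 and Tubb4b at 17. The coding sequence of Tubb5 (1335 bases) is shorter than that of Tubb2a (1338 bases), so its line was aligned with gaps. Bases of Tubb2a that face a gap are not in the count for Tubb5. Over the whole coding sequence Tubb2a and Tubb2b were 96.5% identical, Tuba1a and Tuba1b 98.3% and Tuba1b and Tuba1c 97.9%. The other pairs within a class lay between 80.2% and 85.2%, apart from Tuba1a and Tuba1c at 97.1%.

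The command in the table's header sets no option for reads that align to several places, which the counting program by default leaves out. The share of each transcript that is unlike any other gene then limits what can be counted. Of all stretches of 100 bases, none of Tubb5 and Tubb6 was found in another gene's transcripts. The share found in no other gene was 72.3% for Tubb2b, 69.4% for Tubb4b and 63.1% for Tubb2a. Among the alpha isotypes it was 53.3% for Tuba4a, 46.6% for Tuba1c, 34.2% for Tuba1a and 27% for Tuba1b. Tubb2a shared most stretches with Tubb2b, Tuba1b with Tuba1c, and Tubb4b with its pseudogene Tubb4b-ps1. Tuba4a shared most with Stk16, a kinase gene that overlaps it on the opposite strand, whereas its coding part was unique throughout. The command sets no strand option either, so reads of Tuba4a and Stk16 in their overlap cannot be told apart. Whether such reads were counted for either gene or left out was not tested.

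**Figure D1:**
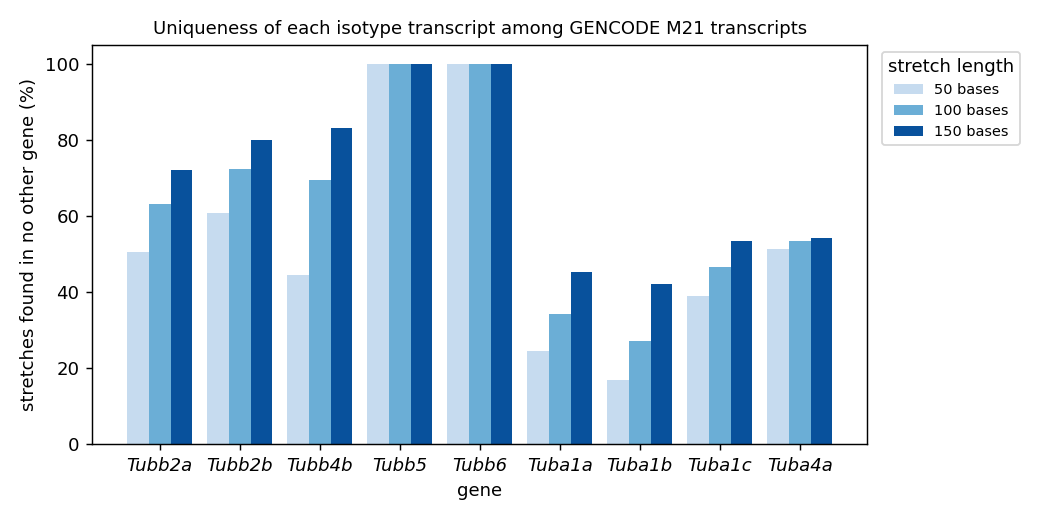
Share of the stretches of 50, 100 or 150 bases (bars, light to dark, in percent of all stretches of that length) of each isotype's transcript that occur in no other gene among GENCODE M21 transcripts. At 100 bases Tuba1b stands lowest, at 27%, and Tubb5 and Tubb6 highest, with every stretch unique.

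The start of the reading frame is the stretch that TTC5 reads in its translated form. The first 12 bases are shown for isotypes of both classes, with the codons after the start codon in capitals.
Tubb2a: atgCGCGAGATC
Tubb2b: atgCGAGAGATC
Tubb4b: atgAGGGAGATC
Tuba1c: atgCGTGAGTGC
Tuba4a: atgCGCGAGTGC
The beta isotypes shown share their last codon, ATC, and both alpha isotypes share TGC. On GRCm39, as the count table gives it, Tubb2a (ENSMUSG00000058672.8) lies on chromosome 13 at 34258257 to 34261990 on the minus strand, next to Tubb2b (ENSMUSG00000045136.7) at 34310731 to 34314449 on the same strand. Tuba1c (ENSMUSG00000043091.10) lies on chromosome 15 at 98927772 to 98935991 on the plus strand. Tuba1b (98829306 to 98832446) and Tuba1a (98847718 to 98851584) lie on the minus strand of that chromosome. Tubb4b is on chromosome 2, Tubb5 on 17, Tubb6 on 18 and Tuba4a on 1.

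The promoters of Tubb2a and Tuba1c, the isotypes for which the family was picked, are given as the 250 bases before the RefSeq start on GRCm38.p6. Capitals mark matches on either strand to the CCAAT box, to the letters TTTGAA of the TCF site, to the GC box with letters GGGCGG and to the TATA box with letters TATAAA. The E box with letters CACGTG was searched as well, without a match in either promoter, and no matches overlapped. Tubb2a is at chr13:34078009-34078258 (minus strand) and Tuba1c at chr15:99029641-99029890 (plus strand).
Tubb2a: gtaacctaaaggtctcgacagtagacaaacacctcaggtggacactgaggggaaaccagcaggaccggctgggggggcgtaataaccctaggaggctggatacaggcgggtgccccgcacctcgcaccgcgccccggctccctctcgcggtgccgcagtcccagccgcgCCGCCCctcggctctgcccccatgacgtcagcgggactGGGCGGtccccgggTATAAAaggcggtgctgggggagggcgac
Tuba1c: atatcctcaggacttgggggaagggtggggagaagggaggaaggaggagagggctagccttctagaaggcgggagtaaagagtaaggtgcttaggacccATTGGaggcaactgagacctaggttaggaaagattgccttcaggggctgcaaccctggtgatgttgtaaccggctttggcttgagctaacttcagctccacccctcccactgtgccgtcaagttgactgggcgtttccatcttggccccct
The Tubb2a window held GGGCGG at 2 places and TATAAA at 1, and the Tuba1c window held CCAAT at 1. Of 32851 RefSeq promoter windows, 32.7% held GGGCGG, 12.4% TATAAA, 33.8% CCAAT, 16.0% TTTGAA and 6.0% CACGTG. Among the 7 isotypes with a RefSeq entry, TATAAA was found for Tubb2a alone, while Tubb4b held CCAAT at 5 places. A match is a description of letters and not of a bound site.

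Levels between isotypes were compared per kilobase of the exon length in the count table. Tubb2a, a beta-tubulin known for its abundance in brain, had the highest mean level per kilobase in each group of both batches. With 20% mannose on normal diet its libraries overlapped those of Tubb4b, at means of 90.5 and 70.5 CPM per kb. The top rank of Tubb2a also depends on the division by length. In plain CPM Tuba4a was above Tubb2a on normal diet, at means of 302.6 and 211.8 CPM in the first batch. The same held in each group of the second batch, as with 20% mannose at 225.5 and 145.7 CPM. In FAT-MASH livers Tubb2a averaged 102.6 CPM per kb, Tubb4b 61.6, Tuba4a 37.4, Tubb5 24.0, Tuba1c 22.9, Tuba1b 21.1, Tubb6 6.00, Tuba1a 3.26 and Tubb2b 0.845. The libraries of Tubb5 and Tuba1c overlapped there, as did those of Tuba1c and Tuba1b, whereas all other neighbours in this order were apart. On normal diet in the first batch the order was Tubb2a (131.5 CPM per kb), Tubb4b (89.3), Tuba4a (81.8), Tuba1c (44.2), Tubb5 (30.8), Tuba1b (23.1), Tubb6 (4.19), Tuba1a (3.05) and Tubb2b (0.876), with overlap between Tubb4b and Tuba4a and between Tubb6 and Tuba1a. In 20% therapy livers Tuba4a was sixth, at 38.4 CPM per kb, below Tuba1c (66.2), Tuba1b (55.4) and Tubb5 (54.9), where neighbours among these 3 overlapped.

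**Figure D2:**
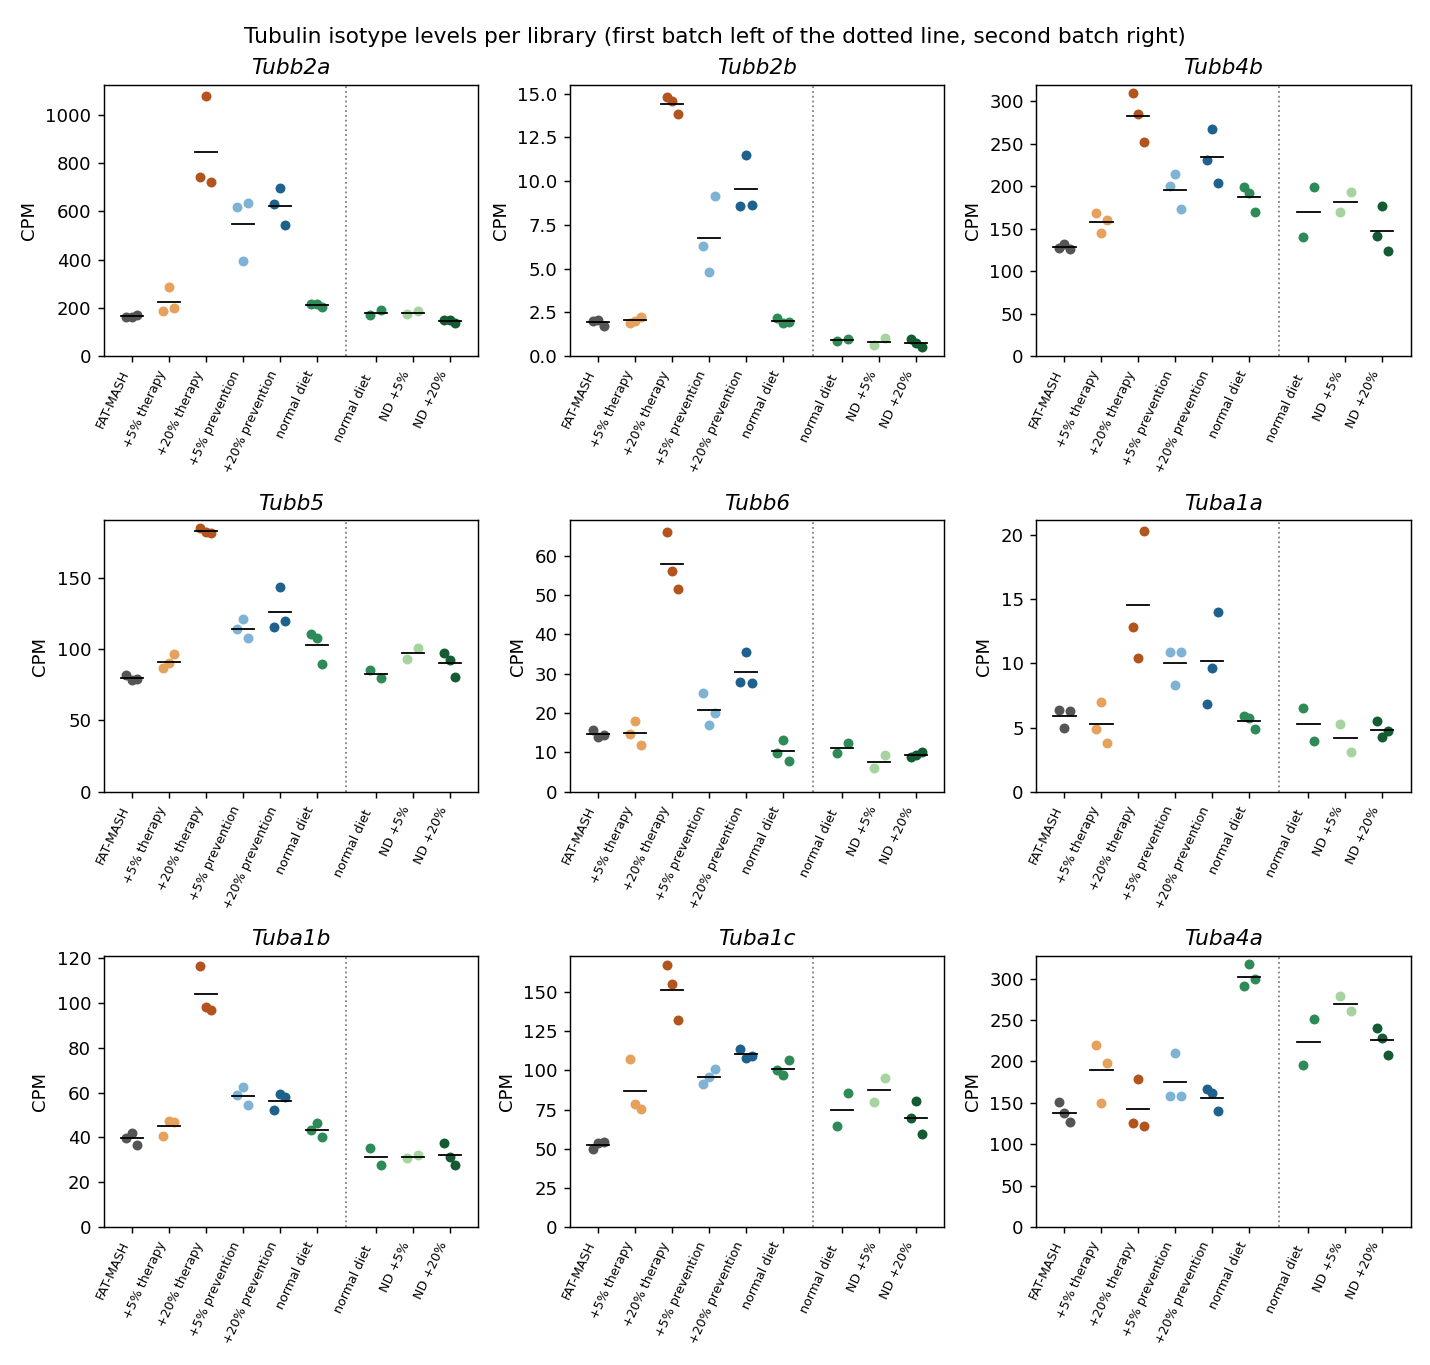
CPM of each isotype (y axis, linear, from 0, scaled within a batch) in every library (points) and its group mean (line), with the first batch left of the dotted line and the second batch right. For Tubb2a the 3 libraries of 20% therapy sit between 720.7 and 1077 CPM, and the 3 FAT-MASH libraries between 162.1 and 170.9 CPM.

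The regimen itself was set against normal diet in the first batch. Its FAT-MASH libraries are those over which Tubb2a and Tuba1c had been seen to be higher with mannose, so both are described here with no test. Of the other 7 isotypes 3 fell and none rose by the quasi-likelihood test of edgeR, with p-values adjusted over 19571 genes by the method of Benjamini and Hochberg, where 13.7% of all genes passed in either direction. The median log2 fold change of these 7 was -0.13, against 0.03 over all genes. Values below are TMM-scaled CPM per library, and log2 fold changes are given ± SE.

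Tuba4a, the alpha-tubulin whose gene encodes no C-terminal tyrosine, had 150.6, 137.9 and 126.4 CPM in FAT-MASH livers, against 290.9, 317.7 and 299.3 CPM in normal-diet livers. All FAT-MASH libraries were below all normal-diet libraries, and Tuba4a fell by 1.13 ± 0.16 on the log2 scale (edgeR adjusted p = 7.89e-05). Stk16 averaged 71.5 ± 3.01 CPM in FAT-MASH livers and 83.8 ± 7.84 CPM in normal-diet livers (SD, n = 3 each), a log2 fold change of -0.23 ± 0.10 that did not pass (edgeR adjusted p = 0.124). The effect of the overlap with Stk16 on the Tuba4a counts was not tested.

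Tubb4b, a beta-tubulin of most cells and of cilia, had 127.6, 132.2 and 125.8 CPM in FAT-MASH livers, against 198.6, 191.2 and 169.7 CPM in normal-diet livers. It was lower in every FAT-MASH library and fell by 0.54 ± 0.11 (edgeR adjusted p = 0.00328).

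Tubb5, the constitutive beta-tubulin, had 82.0, 78.2 and 78.8 CPM in FAT-MASH livers, against 110.4, 107.5 and 89.6 CPM in normal-diet livers. The groups did not overlap, and Tubb5 fell by 0.36 ± 0.10 (edgeR adjusted p = 0.0181). That call was lost with library totals alone as scaling (adjusted p = 0.0663) and without normal diet replicate 1 (0.0816), normal diet replicate 2 (0.0680), FAT-MASH replicate 2 (0.0526) or FAT-MASH replicate 3 (0.0554).

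The other tested isotypes did not pass. Tubb6, a beta-tubulin that is scarce in most tissues, had 15.6, 14.0 and 14.3 CPM in FAT-MASH livers against 9.84, 13 and 7.80 CPM in normal-diet livers (0.51 ± 0.19, edgeR adjusted p = 0.0741). Without normal diet replicate 2, the highest normal-diet library, its log2 fold change was 0.71 with an adjusted p of 0.0248. Tubb2b (-0.05 ± 0.22, and 0.02 with library totals alone as scaling), Tuba1a (0.10 ± 0.27) and Tuba1b (-0.13 ± 0.10) had overlapping libraries and adjusted p between 0.459 and 0.917. Of the 7 isotypes tested 1 was without overlap on the higher side and 3 on the lower side, against 17.7% and 15.1% of all genes.

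Tuba1c, an alpha-tubulin expressed in many tissues, had 49.6, 53.4 and 54.0 CPM in FAT-MASH livers, against 99.95, 97.1 and 106.3 CPM in normal-diet livers. Tubb2a had 162.7, 162.1 and 170.9 CPM in FAT-MASH livers, against 215.6, 214.4 and 205.3 CPM in normal-diet livers. Both were lower in every FAT-MASH library, with log2 fold changes of -0.95 ± 0.12 for Tuba1c and -0.36 ± 0.18 for Tubb2a.

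Genes that handle tubulin were mostly called neither way in this comparison. Of 21 genes for tubulin folding, Cct4, a subunit of the chaperonin that folds actin and tubulin, rose (0.45 ± 0.09), while Tbcb, a tubulin folding cofactor, fell (-0.31 ± 0.10). Of 17 measured genes that modify tubulin tails or the lattice, Ttll7, a polyglutamylase, rose (1.36 ± 0.42), and Hdac6, which removes acetyl groups from microtubules, fell (-0.40 ± 0.11). Tubg1, the gamma-tubulin of nucleation sites, fell (-0.64 ± 0.11). Of 18 motor genes 2 rose (Dync1li2 0.45 ± 0.10, Kif3b 0.44 ± 0.15) and Kif13b fell (-0.43 ± 0.10). The 3 genes of tubulin mRNA autoregulation, Ttc5, Scaper and Cnot11, had log2 fold changes of -0.12, 0.04 and -0.18, and none passed.

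Cell type markers moved in the same libraries. Of 10 macrophage markers 7 rose, with a summed level of 460.8 to 822.1 CPM in FAT-MASH livers and 221.0 to 226.2 CPM in normal-diet livers. Of 10 stellate cell and fibroblast markers 7 rose as well (510.1 to 663.6 CPM in FAT-MASH livers, 260.0 to 333.7 CPM in normal-diet livers). Of 10 hepatocyte markers Tat, Serpina1c and Cps1 fell (97770 to 110900 CPM in FAT-MASH livers, 109900 to 124500 CPM in normal-diet livers). Of 8 endothelial markers Lyve1 rose (summed 241.1 to 268.1 CPM in FAT-MASH livers, 197.3 to 225.6 CPM in normal-diet livers). None of 8 cholangiocyte markers passed, while their sum was apart (99.6 to 120.9 CPM in FAT-MASH livers, 55.0 to 92.9 CPM in normal-diet livers). Over the first batch Spp1 averaged 188.6 CPM and Sox9 16.3 CPM, so Spp1 weighs heavily in this sum and in the cholangiocyte sums below. Of 9 measured lymphocyte and neutrophil markers S100a9 and S100a8 rose (15.1 to 18.2 CPM in FAT-MASH livers, 8.91 to 21.01 CPM in normal-diet livers). No cell type marker was at 0 in all libraries, and their part in the tubulin values was not tested.

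Mannose on the regimen is the pattern for which the family was picked, so its values against FAT-MASH are given without a test. All 4 mannose groups are set against the same 3 FAT-MASH libraries. Tubb2a had 162.1 to 170.9 CPM in FAT-MASH livers, 188.4 to 286.9 CPM with 5% therapy and 720.7 to 1077 CPM with 20% therapy. With prevention it had 393.0 to 634.2 CPM at 5% and 545.4 to 694.9 CPM at 20%. Every mannose library was above every FAT-MASH library. The log2 fold changes over FAT-MASH were 0.45 ± 0.18 with 5% therapy, 2.36 ± 0.19 with 20% therapy, 1.73 ± 0.19 with 5% prevention and 1.92 ± 0.19 with 20% prevention.

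Tuba1c had 49.6 to 54.0 CPM in FAT-MASH livers, 75.1 to 107.0 CPM with 5% therapy and 131.9 to 167.1 CPM with 20% therapy. With prevention it had 91.1 to 100.9 CPM at 5% and 107.6 to 113.7 CPM at 20%. Again no mannose library reached down to the FAT-MASH level. Its log2 fold changes over FAT-MASH were 0.73 ± 0.12 with 5% therapy, 1.53 ± 0.12 with 20% therapy, 0.87 ± 0.12 with 5% prevention and 1.07 ± 0.12 with 20% prevention.

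Tubb2b, a beta-tubulin of developing neurons, had the largest log2 fold changes over FAT-MASH in 3 of these groups, at 2.89 ± 0.22 with 20% therapy, 1.8 ± 0.21 with 5% prevention and 2.30 ± 0.22 with 20% prevention. With 5% therapy it stood at 0.08 ± 0.22. It remained scarce, with 1.75 to 2.07 CPM in FAT-MASH livers, 1.87 to 2.26 CPM with 5% therapy and 13.9 to 14.8 CPM with 20% therapy. Tubb6 stood at 0.02 ± 0.18 with 5% therapy and 1.98 ± 0.19 with 20% therapy. Tuba4a had the smallest difference from FAT-MASH in the 20% groups, at 0.04 ± 0.16 with therapy and 0.18 ± 0.16 with prevention. These values were 0.34 and 0.35 with library totals alone as scaling, which moved the median of all genes by 0.30 and 0.18.

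Of the 9 isotypes 1 was past the threshold over FAT-MASH with 5% therapy (0.0358% of all genes), 8 with 20% therapy (21.4%), 6 with 5% prevention (2.27%) and 7 with 20% prevention (15.1%). Since those contrasts chose the family, nothing is read from these counts. The rule set no threshold.

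**Figure D3:**
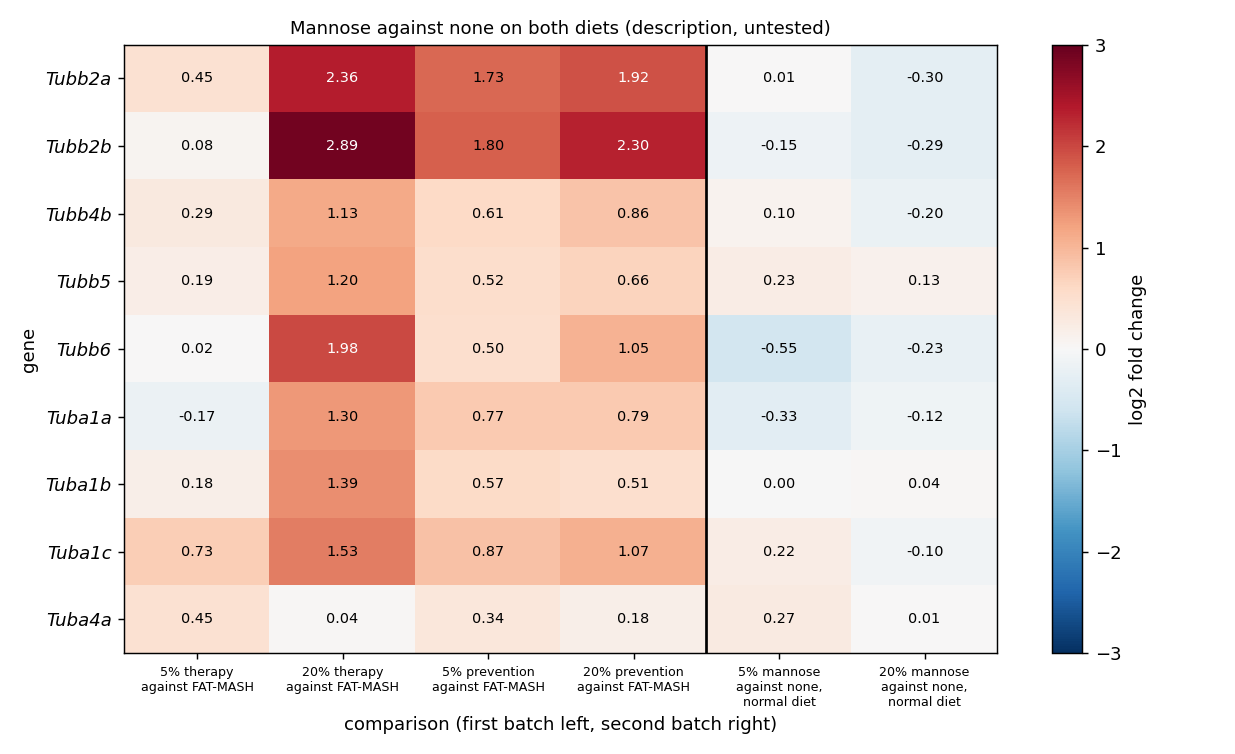
Log2 fold change of each isotype (rows) with mannose against no mannose (columns; the first-batch comparisons against FAT-MASH are left of the black line, the second-batch comparisons on normal diet right), as colour and as a number. Values on the regimen reach 2.89 for Tubb2b with 20% therapy, while those on normal diet lie between -0.55 and 0.27.

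Mannose on normal diet was measured in the second batch only and is described in the same way. Tubb2a had 168.8 and 190.6 CPM without mannose, 174.0 and 186.8 CPM with 5% mannose and 135.8 to 151.3 CPM in the 3 libraries with 20% mannose. The 5% libraries lay within the range of those without mannose, while the 20% libraries lay below both. The log2 fold changes over no mannose were 0.01 ± 0.12 with 5% and -0.30 ± 0.11 with 20%.

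Tuba1c had 64.3 and 85.4 CPM without mannose, 79.5 and 94.9 CPM with 5% mannose and 69.8, 80.2 and 59.1 CPM with 20% mannose, and these overlapped. Tubb6 had 5.92 and 9.23 CPM with 5% mannose, against 9.87 and 12.3 CPM without mannose, which do not overlap (-0.55 ± 0.24). On the higher side Tubb5 had 93.0 and 101.0 CPM with 5% mannose, against 79.9 and 85.1 CPM without mannose (0.23 ± 0.13). Tuba4a was higher without overlap as well, at 260.8 and 278.7 CPM with 5% mannose, against 195.9 and 251.6 CPM without mannose (0.27 ± 0.14). With 2 libraries in each group, no overlap is easily met, and no share over all genes is given. Nothing is therefore read from these separations. None of the 9 isotypes was past edgeR's threshold in either comparison on normal diet. Over all genes edgeR called 0% with 5% mannose, with 1039 genes at an unadjusted p under 0.05 and 41 called by DESeq2. With 20% mannose it called 0.00542%, that is Slc39a4 alone, with 1066 genes at an unadjusted p under 0.05 and 65 called by DESeq2.

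The 20% effect on the regimen (prevention) was 2.22 ± 0.25 log2 units above that on normal diet for Tubb2a, 1.18 ± 0.20 for Tuba1c and 2.59 ± 0.38 for Tubb2b, and 0.16 ± 0.22 for Tuba4a. In this difference 6 isotypes were past the threshold, with 5.67% of all genes. These are descriptions too, as a term of each was used to pick the family. Diet and batch enter each difference together, and within a batch each value stands as given above.

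The doses were then compared with each other within a timing, which leaves the FAT-MASH libraries out. These comparisons do not use the contrast with FAT-MASH, but Tubb2a and Tuba1c were chosen by their levels in these same mannose libraries. Their p-values here and in the comparisons of timing below are therefore not independent of the choice. Counts and medians over the 9 isotypes in these comparisons include both, so they are not independent of it either. Under therapy 8 of the 9 isotypes were higher with 20% than with 5% mannose by edgeR's test, where 17.7% of all genes passed in either direction. Besides Tubb2a and Tuba1c these were Tubb2b, Tubb4b, Tubb5, Tubb6, Tuba1a and Tuba1b. All 8 had no overlap between the groups, against 15.9% of all genes that lay higher without overlap. The median log2 fold change of the isotypes was 1.21, against 0.01 over all genes.

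Tubb2a had 743.6, 1077 and 720.7 CPM with 20% therapy, against 188.4, 286.9 and 201.1 CPM with 5% therapy. Every 20% library was above every 5% library, and Tubb2a rose by 1.91 ± 0.19 (edgeR adjusted p = 2.34e-06). Tubb2b had 14.8, 14.6 and 13.9 CPM with 20% therapy, against 1.87, 2.02 and 2.26 CPM with 5% therapy. It rose by 2.81 ± 0.22 (edgeR adjusted p = 3.65e-07), the largest difference among the isotypes.

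Tubb6 had 66.0, 56.2 and 51.5 CPM with 20% therapy, against 14.6, 18.0 and 11.9 CPM with 5% therapy. It rose by 1.97 ± 0.19 (edgeR adjusted p = 1.86e-06). Tubb5 had 184.9, 181.8 and 181.4 CPM with 20% therapy, against 86.5, 90.3 and 96.5 CPM with 5% therapy, a rise of 1.00 ± 0.10 (edgeR adjusted p = 2.45e-06). Neither transcript has a stretch of 100 bases in common with another gene. Tubb4b rose by 0.84 ± 0.11 (edgeR adjusted p = 4.29e-05), and its pseudogene Tubb4b-ps1 rose too, with a mean of 7.46 ± 0.445 CPM in 20% therapy livers and 3.34 ± 0.0517 CPM in 5% therapy livers (SD, n = 3 each).

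Among the alpha isotypes Tuba1b, the form of most dividing and non-dividing cells, had 116.5, 98.2 and 96.7 CPM with 20% therapy, against 40.4, 47.2 and 47.0 CPM with 5% therapy. The groups were far apart, and Tuba1b rose by 1.21 ± 0.10 (edgeR adjusted p = 8.44e-07). Tuba1c rose by 0.80 ± 0.12 (edgeR adjusted p = 8.93e-05). Tuba1a, the alpha-tubulin of developing neurons, had 12.8, 10.4 and 20.3 CPM with 20% therapy, against 4.92, 6.98 and 3.83 CPM with 5% therapy, and rose by 1.47 ± 0.27 (edgeR adjusted p = 0.000765).

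Tuba4a was the exception, at 125.8, 179.0 and 121.9 CPM with 20% therapy, against 220.0, 149.4 and 198.2 CPM with 5% therapy. The libraries overlapped through replicate 2 of each group, and the log2 fold change of -0.41 ± 0.16 did not pass (edgeR adjusted p = 0.0781). Without 20% therapy replicate 2 its value was -0.62 with an adjusted p of 0.00969, and without 5% therapy replicate 2 it was -0.56 with an adjusted p of 0.0199. Stk16, its neighbour on the opposite strand, fell by 0.32 ± 0.10 (edgeR adjusted p = 0.0261), and the effect of their overlap on the Tuba4a counts was not tested.

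Under prevention none of the 9 isotypes passed between 20% and 5% mannose by edgeR, and DESeq2 called none either. Tubb2b, Tubb4b and Tubb6, 3 of the 9, had an unadjusted edgeR p under 0.05, as had 2720 of all 19571 genes. By adjusted p 0.445% of all genes were called. Tubb2a had 631.5, 694.9 and 545.4 CPM with 20% prevention, against 618.6, 393.0 and 634.2 CPM with 5% prevention. The libraries overlapped, with a log2 fold change of 0.19 ± 0.18 (edgeR adjusted p = 0.732). Tubb6 had 27.9, 35.7 and 27.6 CPM with 20% prevention, against 25, 17.1 and 20.1 CPM with 5% prevention, with no overlap (0.55 ± 0.18, edgeR adjusted p = 0.155). Without a filter on low counts its adjusted p was 0.00588. Tuba1c was the other isotype whose 20% libraries all lay above the 5% libraries, against 9.64% of all genes. The median over the isotypes was 0.19, against 0 over all genes.

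**Figure D4:**
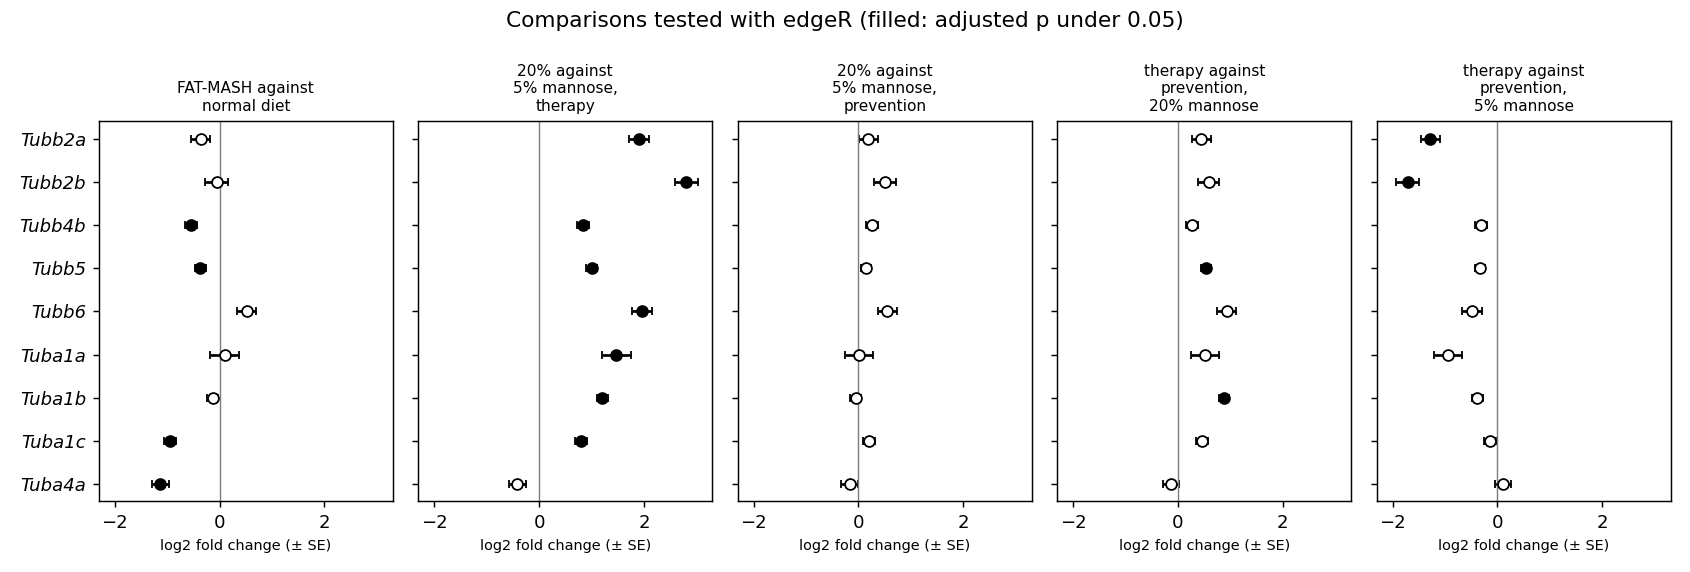
Log2 fold change (x axis, points, with bars of ± 1 SE) of each isotype (rows) in the 5 pairwise comparisons in the first batch. Points are filled where edgeR's adjusted p was under 0.05. In FAT-MASH against normal diet Tubb2a and Tuba1c are a description only, and nothing is read from the fill of Tuba1c there. In 20% against 5% therapy 8 of 9 points are filled and lie between 0.80 and 2.81.

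Timing was compared at each dose. At 5%, Tubb2a and Tubb2b were lower with therapy than with prevention, 2 of 9 isotypes where 0.194% of all genes passed in either direction. Tubb2a had 188.4, 286.9 and 201.1 CPM with 5% therapy, against 618.6, 393.0 and 634.2 CPM with 5% prevention, and fell by 1.28 ± 0.18 (edgeR adjusted p = 0.00628). Tubb2b had 1.87, 2.02 and 2.26 CPM with 5% therapy, against 6.27, 4.8 and 9.16 CPM with 5% prevention, and fell by 1.71 ± 0.21 (edgeR adjusted p = 0.00206). Both sets of libraries were apart.

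Those calls were lost with only these groups in the fit, where Tubb2a had -1.28 with an adjusted p of 0.0638 and Tubb2b -1.71 with an adjusted p of 0.0643. Without 5% therapy replicate 1 the value for Tubb2a was -1.16 with an adjusted p of 0.0725. Tuba1a (-0.94 ± 0.27), Tuba1b (-0.38 ± 0.10), Tubb5 (-0.33 ± 0.10) and Tubb4b (-0.31 ± 0.11) also had libraries without overlap and adjusted p between 0.119 and 0.265. In all, 6 isotypes had therapy libraries below the prevention libraries at this dose, against 8.24% of all genes.

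At 20%, Tuba1b and Tubb5 were higher with therapy than with prevention. Tuba1b had 116.5, 98.2 and 96.7 CPM with 20% therapy, against 52.1, 59.2 and 57.9 CPM with 20% prevention, and rose by 0.88 ± 0.10 (edgeR adjusted p = 0.00103). Tubb5 had 184.9, 181.8 and 181.4 CPM with 20% therapy, against 115.4, 143.4 and 119.5 CPM with 20% prevention, and rose by 0.53 ± 0.10 (edgeR adjusted p = 0.0473). These 2 isotypes were among the 16 genes called in this comparison, 0.0818% of all genes tested.

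Tubb6, at 66.0, 56.2 and 51.5 CPM with 20% therapy, against 27.9, 35.7 and 27.6 CPM with 20% prevention, missed the threshold (0.93 ± 0.18, edgeR adjusted p = 0.0584). It passed without 20% therapy replicate 2 (0.95, adjusted p = 0.0426). In all, 6 isotypes had no overlap between the groups on the higher side, against 8.45% of all genes. With only these groups in the fit neither call held, at 0.89 with an adjusted p of 0.0546 for Tuba1b and 0.55 with an adjusted p of 0.146 for Tubb5. The Tubb5 call was lost without 20% prevention replicate 1 (0.269) or 3 (0.0841) and without 20% therapy replicate 1 (0.253) or 3 (0.119).

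The difference between the doses itself differed by timing. By edgeR's interaction term 5 of the 9 isotypes passed, all with a larger 20% over 5% difference under therapy, where 2.17% of all genes passed in either direction. Tubb2a, chosen by its levels in these libraries, is among the 5, so its p-value is not independent of the choice. The differences of log2 fold changes were 2.30 ± 0.29 for Tubb2b (edgeR adjusted p = 0.00188), 1.72 ± 0.26 for Tubb2a (0.00428), 1.42 ± 0.26 for Tubb6 (0.0105), 1.26 ± 0.14 for Tuba1b (0.000819) and 0.86 ± 0.14 for Tubb5 (0.00558). Tuba1a (1.46 ± 0.38, 0.0506), Tubb4b (0.58 ± 0.16, 0.0617) and Tuba1c (0.60 ± 0.17, 0.0625) lay just beyond the threshold. Tuba4a had -0.24 ± 0.22 (0.664).

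Some of those near misses passed with a library left out. Tubb4b passed without 20% prevention replicate 2 (0.69, adjusted p = 0.0375) and Tuba1c without 5% therapy replicate 1 (0.77, adjusted p = 0.0185). Tuba1a passed without 5% prevention replicate 2 (0.0414), 20% prevention replicate 3 (0.0197), 5% therapy replicate 2 (0.0220) or 20% therapy replicate 2 (0.0221).

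The make-up of the counted tubulin mRNA was described per kilobase as the share of each isotype in its class. Tubb2a held 52.6% ± 1.16 of the summed beta isotypes in FAT-MASH livers, 55.5% ± 6.52 with 5% therapy and 70.1% ± 4.71 with 20% therapy (SD, n = 3 each). With prevention it held 70.2% ± 7.04 at 5% and 70.0% ± 0.885 at 20%. It held 51.3% ± 1.64 on normal diet in the first batch. On normal diet in the second batch it held 50.3% ± 2.29 without mannose, 48.5% ± 0.991 with 5% mannose and 47.2% ± 2.28 with 20% mannose.

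Tuba4a held 44.1% ± 2.29 of the summed alpha isotypes in FAT-MASH livers, 43.9% ± 4.39 with 5% therapy and 22.8% ± 4.39 with 20% therapy (SD, n = 3 each). On normal diet in the first batch it held 53.7% ± 1.09. Tuba1b held 33.0% ± 2.67 in 20% therapy and 21% ± 3.99 in 5% therapy. The beta sum was 650.1 to 889.4 CPM per kb in 20% therapy livers and 230.3 to 282.9 CPM per kb in 5% therapy livers. The alpha sum was 153.4 to 176.3 CPM per kb in 20% therapy livers and 103.9 to 130.5 CPM per kb in 5% therapy livers. The share of unique stretches differs between the isotypes, so these shares and sums are of counted reads.

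**Figure D5:**
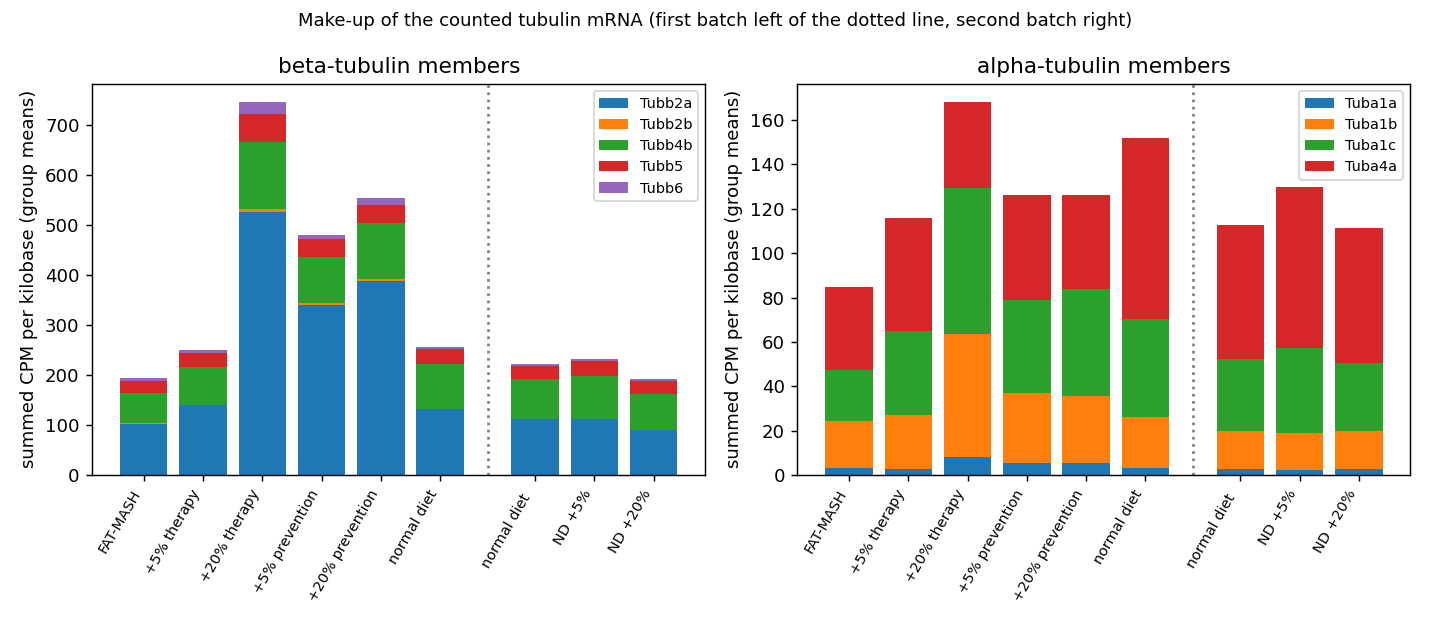
Group means of CPM per kilobase (y axis) stacked by isotype, beta left and alpha right, with the first batch left of the dotted line and the second batch right. The beta stack is tallest in 20% therapy, where Tubb2a makes up 70.1% of it, and Tuba4a makes up 22.8% of the alpha stack there and 53.7% on normal diet in the first batch.

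Other genes of the microtubule system were counted in 20% against 5% therapy, where most isotypes rose. All 28 genes of the mitotic spindle list rose (median 3.41 on the log2 scale), among them Knstrn (4.37 ± 0.46), the chromosome motor Kif22 (3.06 ± 0.35), Hmmr (4.74 ± 0.54) and the kinetochore gene Nuf2 (4.79 ± 0.56). Of 16 cell division genes 15 rose (median 2.73), including Ube2c (4.54 ± 0.41), Cdk1 (2.62 ± 0.27), Cdc20 (4.51 ± 0.50) and Top2a (3.51 ± 0.39). The summed level of the spindle list was 184.7 to 530.7 CPM in 20% therapy livers and 49.4 to 64.0 CPM in 5% therapy livers. Its part in the tubulin values was not tested.

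Of 16 stabilisers and plus end proteins 6 rose (median 0.30), including Mapre1 (0.51 ± 0.09), which tracks growing ends, Ckap5 (0.78 ± 0.15), a polymerase of microtubules, Clasp1 (0.74 ± 0.17) and Map4 (0.39 ± 0.09). Of 10 measured destabilisers 3 rose: the depolymerising kinesin Kif2c (4.38 ± 0.52), Fignl1 (3.61 ± 0.73) and Stmn1 (1.82 ± 0.39), which binds free dimers. Of 18 motor genes 3 rose and 2 fell, with the dynein light chain gene Dynll1 at 1.05 ± 0.11, Kif5b at 0.39 ± 0.10, Dync1li2 at 0.34 ± 0.10, Klc4 at -0.54 ± 0.10 and Kif13b at -0.45 ± 0.10. In the actin cytoskeleton list 14 of 23 rose (median 0.56), led by p with the keratins Krt8 (1.61 ± 0.16) and Krt18 (1.39 ± 0.16) that the list also holds.

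Few of the genes that fold or modify tubulin passed. Of 21 folding genes 3 rose and none fell, with a median of 0.05. Those were Vbp1 (0.60 ± 0.13) and Pfdn4 (0.51 ± 0.16), subunits of prefoldin, and Pdcl3 (0.30 ± 0.10), a cofactor of the chaperonin. Of 17 modifying enzymes 1 fell, Atat1, the alpha-tubulin acetyltransferase (-0.61 ± 0.18), and none rose. The autoregulation genes Ttc5 (0.21 ± 0.14), Scaper (0.17 ± 0.21) and Cnot11 (-0.03 ± 0.12) did not pass, and Tubgcp4 (0.57 ± 0.15) was the only riser of 11 nucleation genes.

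The remaining tubulin genes had few reads. Tuba8 had 42 to 396 counts over the 25 libraries, Tubb4a 0 to 72, Tubb3 0 to 54 and Tubb1 0 to 18, while Tuba3b and Tubal3 had none. Of the 8 measured genes among 11 other tubulin genes, Tubb3 alone was past edgeR's threshold in 20% against 5% therapy (4.23 ± 1.22 at a mean of 0.263 CPM). With a median of 2 counts over the 25 libraries, Tubb3 passed the filter only through libraries where it was high. Nothing is therefore read from its value. Tuba8 had 0.76 ± 0.27 there (edgeR adjusted p = 0.0623), and Tubg1 had -0.05 ± 0.11.

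Cell type markers shifted in the same comparison. Cholangiocyte markers rose in 7 of 8 cases (168.3 to 767.2 CPM summed in 20% therapy livers, 91.0 to 136.3 CPM in 5% therapy livers), led by p with Epcam (2.67 ± 0.48). Hepatocyte markers fell in 8 of 10 cases (65990 to 74030 CPM in 20% therapy livers, 96150 to 120600 CPM in 5% therapy livers), among them Cyp2e1 (-1.45 ± 0.17). Of the stellate cell and fibroblast markers Des, Pdgfrb, Col1a1 and Lrat rose. Of 9 measured lymphocyte and neutrophil markers S100a9 and S100a8 rose, and none of the macrophage or endothelial markers passed. All of these markers had reads in at least 1 library. Their part in the tubulin values was not tested.

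For the interaction of dose and timing, 17 of 28 spindle genes and 12 of 16 cell division genes passed, all with a larger difference under therapy, at medians of 2.42 and 2.03. Folding genes passed in 1 of 21 cases (Pfdn4, 0.88 ± 0.22) and motors in 1 of 18 (Dynll1, 1.05 ± 0.16). Kif2c was the only one of 10 measured destabilisers to pass (3.5 ± 0.67). At 5%, where Tubb2a and Tubb2b were lower with therapy, none of the spindle or cell division genes passed, with medians of -1.13 and -0.93, against -0.01 over all genes. At 20%, where Tuba1b and Tubb5 were higher with therapy, none passed either, with medians of 1.22 and 1.23.

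No cell type marker passed in either comparison of timing, while some summed levels were apart. At 5%, cholangiocyte markers summed to 91.0 to 136.3 CPM with therapy and 177.4 to 288.4 CPM with prevention. Lymphocyte and neutrophil markers summed to 14.4 to 19.9 CPM with 5% therapy and 24.6 to 30.0 CPM with 5% prevention. At 20%, hepatocyte markers summed to 65990 to 74030 CPM with therapy and 80390 to 98480 CPM with prevention. In the interaction the hepatocyte markers Cyp2e1 (-1.25 ± 0.24) and Hnf4a (-0.70 ± 0.15) passed. Their part in the tubulin values was not tested.

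The genes whose profiles over the 18 first-batch libraries were nearest to that of Tubb2a were Tubb2b, Ajuba, Synpo, Spon2, Adamts1 and Hilpda, out of 9857 candidates. The measure was the root mean square difference of centred log2(CPM + 0.5) profiles, which was 0.298 for Tubb2b and 0.399 for Hilpda. Ajuba, a LIM protein of cell junctions, averaged 9.32 CPM in FAT-MASH livers, 13.9 CPM with 5% therapy and 40.6 CPM with 20% therapy. Among the isotypes Tubb6 ranked 17th in nearness to Tubb2a and Tuba1c 272nd. Tuba4a was the farthest isotype, at 1.14.

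Nearest to Tuba1c were Tubb4b (0.204), Alg8 (0.252), Tubb5 (0.254), Jpt2, Acsl4 and Arhgdia (0.263). Alg8, a glucosyltransferase that builds the N-glycan precursor, averaged 7.07 CPM in FAT-MASH livers, 8.53 CPM with 5% therapy and 14.8 CPM with 20% therapy. Tubb2a ranked 7770th in nearness to Tuba1c, and Tuba1b 63rd. The profiles are not scaled, so these ranks depend on the size of the changes as well as on their pattern. The difference between Tubb2a and Tuba1c was 0.637 both ways, although it ranked 272nd from Tubb2a. Tuba4a, at 0.593, ranked nearer to Tuba1c than Tubb2a did. The profiles share the 18 libraries and their scaling, and the Tubb2a and Tubb2b transcripts share stretches of sequence as described.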

How the data were processed

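The authors deposited raw counts per gene, made with STAR on GRCm39 and featureCounts 2.0.6 per the submitters' processing notes. The file header names featureCounts 2.0.1 and GENCODE release M31 and sets no option for strand, read pairs or multiply aligned reads. The length column of the same deposited table served for CPM per kilobase. The batches, as the labels name them, were fitted apart with edgeR 4.0.16 in R 4.3.3 (TMM, filterByExpr with a minimum count of 10, quasi-likelihood test, Benjamini-Hochberg adjusted p under 0.05 over 19571 or 18462 genes). Only the difference between diets used all 25 libraries (21373 genes). It is given without a test, although one had been planned, since the choice of genes used a term of it. The planned test of Tubb2a and Tuba1c against normal diet is left out for the same reason. Alternatives were DESeq2 1.42.0, RLE size factors, library totals alone, no filter, the replicate number as a block, only the groups compared, and leaving out each library. A block by the numbers in the second batch's column names was added after seeing the data. Counts of replicate libraries differed by more than sampling noise (chi-square per degree of freedom at least 21.2), and p-values measure the spread between these libraries. The scripts were tested on simulated data. The coding ends of the alpha isotypes are not reported here. All 9 isotypes are named. Of each list at most 4 genes with the smallest p and at least 1 CPM are named, and 5 or fewer calls in full. The isotypes and lists were chosen with earlier results of these data known.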

Additional observations from a re-analysis of the deposited data

Results flagged for a closer look

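The difference between 20% and 5% mannose was larger under therapy than under prevention for 5 isotypes by edgeR's interaction term. On the log2 scale these differences were 1.72 for Tubb2a, 2.3 for Tubb2b, 0.86 for Tubb5, 1.42 for Tubb6 and 1.26 for Tuba1b. Of these isotypes Tubb2a was chosen by its levels in the mannose libraries. In the same libraries the summed spindle list lay at 184.7 to 530.7 CPM with 20% therapy and 49.4 to 64.0 CPM with 5% therapy, and at 151.1 to 168.6 CPM with 20% prevention and 86.3 to 104.6 CPM with 5% prevention. Its part in the tubulin values was not tested.

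For 2 isotypes all libraries moved one way with mannose on the regimen and the other way on normal diet, a difference that was not tested because the family was picked on mannose contrasts. Tubb2a at 20% had a log2 fold change of 1.92 on the regimen (prevention) and -0.3 on normal diet. Tubb6 at 5% had 0.5 on the regimen (prevention) and -0.55 on normal diet, where each group had 2 libraries. On normal diet the Tubb6 value was -0.26 without 5% mannose replicate 1 and -0.90 without 5% mannose replicate 2. Diet and batch cannot be told apart in these pairs. No overlap is easily met with 2 or 3 libraries a group, and no share over all genes is given for the normal diet.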

How the results depend on the processing

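Among the isotypes, 4 past the threshold against normal diet (Tuba1c included) became 3 with library totals alone, 6 without a filter and 5 with the replicate block or only the groups compared. These counts are over all 9 isotypes, of which Tubb2a and Tuba1c are described only, so nothing is read from their part in them. The 8 calls between 20% and 5% therapy stayed at 8 with the replicate block. Replicate numbers did not pair the libraries: in 0 of 9 comparisons were all correlations of same-numbered libraries over 0.1 (range -0.279 to 0.303). In the second batch the replicate numbers of the groups with and without mannose differ, but the count table's columns share the numbers 11 and 13 (correlations 0.009 to 0.121), too few pairs to show a pairing. A replicate block by these numbers, added after seeing the data, gave 16 genes with 5% mannose and 32 with 20% mannose on normal diet. With the replicate block Tubb6 passed against normal diet (adjusted p = 0.0477), and Tubb5 did not pass in therapy against prevention at 20% (0.0711). The cause of each shift below was not tested.

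The isotypes called moved as follows. Between 20% and 5% prevention 0 became 1 without a filter. In therapy against prevention at 5%, 2 became 4 with DESeq2, 4 without a filter and 0 with only the groups compared. At 20%, 2 became 4 with DESeq2, 4 with library totals alone, 5 without a filter, 1 with the replicate block and 0 with only the groups compared. For the interaction, 5 became 8 with DESeq2, with library totals alone or without a filter. Leaving out 1 library gave 1 to 2 isotypes in therapy against prevention at 5%, and 1 to 3 at 20%.

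Over all genes, 20% against 5% prevention gave 87 calls, 635 with DESeq2, 137 with library totals alone, 819 without a filter, 28 with the replicate block and 20 with only the groups compared. In 20% against 5% therapy 3455 became 5627 with library totals alone. Therapy against prevention gave 38 calls at 5% (358 with DESeq2, 862 without a filter, 17 with the replicate block, 5 with only the groups compared). At 20% it gave 16 (405 with DESeq2, 183 with library totals alone, 702 without a filter, 3 with the replicate block, 0 with only the groups compared). The interaction gave 424 (974 with DESeq2, 722 with library totals alone, 1364 without a filter). Against FAT-MASH, 5% prevention gave 445 (940 with DESeq2, 1254 without a filter), 5% therapy gave 7 (85 with DESeq2, 339 without a filter, 1 with only the groups compared), and 20% therapy gave 4195 (6520 with library totals alone). On normal diet 5% mannose gave 0 (41 with DESeq2, 1 with library totals alone, 222 without a filter). There 20% mannose gave 1 (65 with DESeq2, 4 with library totals alone, 254 without a filter, 0 with only the groups compared).

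Leaving out 1 library gave 1 to 179 genes for 20% against 5% prevention, 2301 to 3308 for 20% against 5% therapy, 2 to 201 and 1 to 111 for therapy against prevention at 5% and at 20%, and 72 to 583 for the interaction. It gave 127 to 344 for 5% prevention, 1938 to 2476 for 20% prevention, 0 to 43 for 5% therapy and 3072 to 3770 for 20% therapy over FAT-MASH. On normal diet it gave 0 to 148 at 5% and 0 to 159 at 20%, and for the difference between diets 524 to 1206.

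Without division by length Tubb2a held 60.7% of the beta isotypes in 20% therapy and 41.4% on normal diet, and Tuba4a 34.4% and 66.9% of the alpha isotypes. Signs turned for these values that were not called: Tubb2b against normal diet was 0.0198 with library totals alone and -0.11 to 0.0043 with a library left out. Between 20% and 5% prevention Tuba1a was -0.00182 with the replicate block, Tuba1b 0.0243 with library totals alone, and with a library left out Tubb2a was -0.0047 to 0.30, Tuba1a -0.28 to 0.24 and Tuba1b -0.11 to 0.0023. Tuba4a in therapy against prevention at 5% was -0.0044 to 0.27. Among the values given without a test, leaving out 1 library also turned signs. With 5% mannose on normal diet Tuba1a was -0.76 to 0.08, Tubb2b -0.60 to 0.20, Tubb4b -0.14 to 0.37, Tuba1b -0.17 to 0.18 and Tubb2a -0.08 to 0.10. With 20% mannose there Tuba1a was -0.44 to 0.28, Tubb4b -0.43 to 0.08, Tuba1c -0.29 to 0.12, Tuba4a -0.15 to 0.20 and Tuba1b -0.13 to 0.23. Over FAT-MASH, Tuba1a was -0.42 to 0.03 and Tubb6 -0.14 to 0.17 with 5% therapy, and Tuba4a -0.16 to 0.15 with 20% therapy. Tuba4a was -0.02 to 0.33 in the difference between diets. On normal diet library totals alone turned the sign of Tubb2a at 5% and of Tuba1b and Tuba4a at 20%, and the added block that of Tuba1b at 5% and Tuba1a at 20%. Scaling by library totals alone moved the median of all genes by 0.27 in 20% against 5% therapy. With 2 or 3 libraries a group, small differences were not detectable.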
